A study of Mus musculus with 24 samples.

Results

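Of the enhancers that MLL-AF10 leukemia cells held and normal granulocyte-monocyte progenitors (GMP) did not, 3183 were listed in the k+ leukemia catalogue and not in k-. These k+ only gained regions were chosen by overlap. Each is a region of the authors' gained list on chromosomes 1 to 19 that shares at least 1 bp with a k+ region and none with a k- region, and the gained list itself leaves out every region that meets a GMP region. They made up 21.3% (95% interval 20.6 to 21.9%) of the 14959 gained regions on those chromosomes, beside 7533 that met k- only and 4243 that met both lists. The gained list held 15189 regions in all. Another 37 k+ only regions on X were not counted.

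The series is ChIP-seq of C57BL/6 mouse bone marrow cells, in 24 libraries with 1 library a group. Mature acute myeloid leukemia cells (mAML), leukemia stem cells (LSC) and GMP each had H3K27ac, H3K4me1, H3K4me3 and input libraries. A second LSC set, with H3K27ac, P300 and input libraries, ran over 0, 24, 48 and 72 hours of exposure to A-485, which inhibits the acetyltransferases p300 and CBP; the titles of its 4 acetylation libraries read H2K27ac, while their antibody field reads H3K27ac. The leukemia carried MLL-AF10 and was grown in culture medium with WEHI-conditioned medium, per the labels. The labels do not say how many mice or clones stand behind a library, and they do not define k+ and k-, so these names are used as the lists carry them.

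Enhancers are stretches of DNA away from promoters at which transcription factors bind and raise the transcription of genes that can lie far off. Active ones are flanked by nucleosomes carrying H3K4me1 and H3K27ac, and p300 and CBP place the acetyl mark. MLL-AF10 is a fusion of a histone methyltransferase with a partner that brings in the H3K79 methyltransferase DOT1L, and GMP are a progenitor stage that MLL fusions can turn into leukemia. Whether the regions here are active enhancers could not be checked against their marks, because the lists hold positions only. No region has a score, no list has a replicate, and the values below describe these lists without a test. Shares carry exact (Clopper-Pearson) 95% intervals, which cover counting error only and are too narrow, since neighbouring regions are not independent. A neighbour is said to be in reach when it lies no farther than the stitching distance, the gap across which enhancers are customarily joined into domains; its length stands with the processing steps. Positions are mm9, counted from 1. Genes and DNA sequence at the regions were not analysed here.

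All 3183 regions were, base for base, single regions of the k+ list. None had been joined from several pieces, so their widths are those the authors gave in k+. They accounted for 34.2% (33.3 to 35.2%) of the 9295 k+ regions on these chromosomes. A further 4675 k+ regions, or 50.3% (49.3 to 51.3%), lay in gained regions of both lists. The other 1437, or 15.5%, were in neither group, and their overlap with GMP regions was not counted. The 7533 k- only gained regions were likewise single regions of the k- list. This makes the widths of k+ only and k- only regions directly comparable, whereas gained regions in both lists are merged and wider by construction.

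The k+ only gained regions were narrow. Their median width was 400 bp with quartiles of 200 and 800 bp, against a median of 600 bp with quartiles of 400 and 1000 bp for k- only regions. Regions of 200 bp, the smallest step of the authors' grid, numbered 899, or 28.2% (26.7 to 29.8%) of k+ only regions, against 23.3% (22.3 to 24.2%) of k- only regions. At the other end, 617 k+ only regions, or 19.4% (18.0 to 20.8%), spanned 1000 bp or more, against 31.25% (30.2 to 32.3%) of k- only regions. Only 61 k+ only regions, or 1.92% (1.47 to 2.46%), reached 2000 bp, against 5.96% (5.44 to 6.52%) of k- only regions. In sum, k+ only regions held 21.3% of the gained regions but 11.6% of the gained base pairs, covering 1.91 Mb. The k+ regions inside gained regions of both lists, taken before merging, had a median of 1000 bp, and 53.7% (52.25 to 55.1%) of them spanned 1000 bp or more.

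The narrower a k+ region, the more often it was a k+ only gained region. Among k+ regions in gained regions, 60.5% (58.0 to 63.0%) of those of 200 bp were k+ only, and 58.2% (55.65 to 60.7%) of those of 400 bp. The share was 40.03% (36.55 to 43.6%) at 800 bp, 20.1% (17.7 to 22.8%) between 1400 and 1800 bp, and 6.31% (4.86 to 8.03%) at 2000 bp or more. The rule ties class to width, because a wider region overlaps others more readily, and its part in this slope was not tested. The class is set for the whole gained region: 252 of the 4675 k+ regions inside gained regions of both lists, or 5.39%, overlapped no k- region themselves and are not counted as k+ only. Of the 61 k+ only regions of 2000 bp or more, 21 had no k- region in reach and 8 had none within 100 kb.

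**Figure D1:**
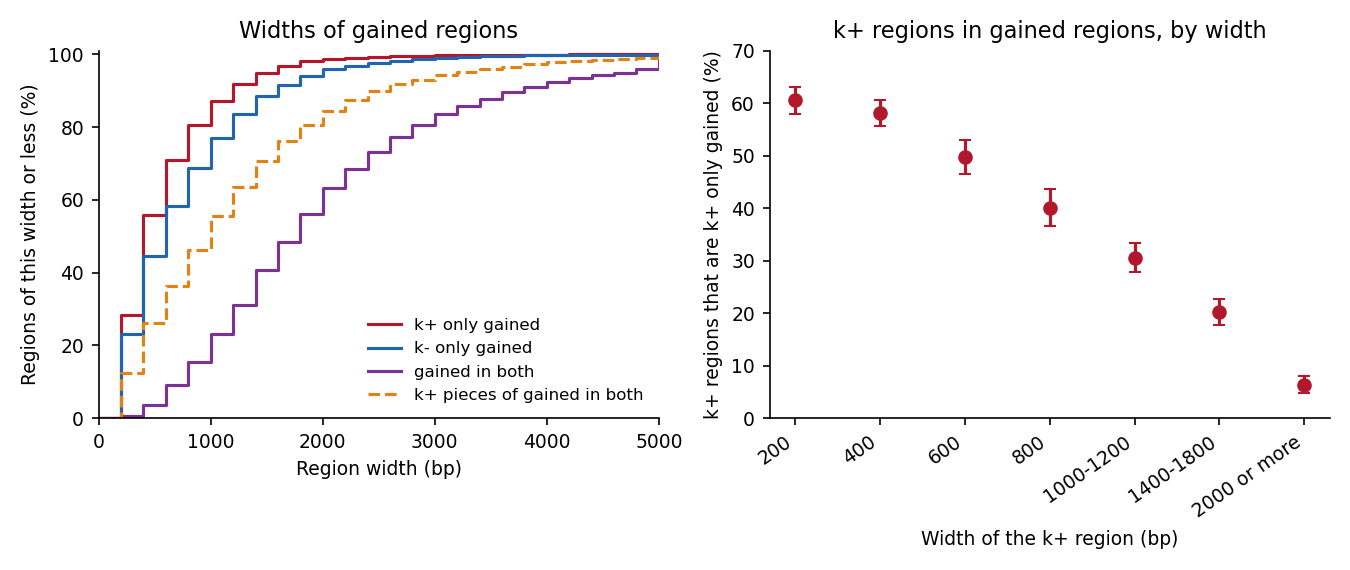
Left, the cumulative percentage of regions by width in bp for k+ only gained regions, k- only gained regions, gained regions in both lists and, dashed, the k+ regions inside the last of these. Right, among k+ regions in gained regions, the percentage that are k+ only gained regions in each width class, with exact 95% intervals: it falls from 60.5% at 200 bp to 6.31% at 2000 bp or more.

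The line between k+ only and shared was thin in places. The rule puts a region in the class if it shares no base with k-, and 143 k+ only regions, or 4.49%, had a k- region 200 bp away, the smallest gap the lists allow. Another 115 had one 400 bp away. Just outside the class, 186 of the 4243 gained regions in both lists joined a k+ and a k- region that only touched end to end, and 570, or 13.4%, rested on 200 shared bp. The word only therefore means absence of an overlapping entry in k-, not distance from k-.

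Most k+ only gained regions lay in the neighbourhood of a k- region. The nearest k- region was at a median of 9200 bp, with quartiles of 2000 and 36000 bp. It was within 1 kb for 523 regions, or 16.4% (15.2 to 17.8%), and in reach for 1780, or 55.9% (54.2 to 57.7%). In 513 cases, or 16.1% (14.9 to 17.4%), k- regions were in reach on both sides, so that the k+ only region sat inside a stretch also occupied in k-. A k- region in reach on 1 side was found for 39.8% (38.1 to 41.5%), and on neither side for 1403 regions, or 44.1% (42.3 to 45.8%). The k- only regions were less close to k+, with a median of 19600 bp and 41.4% (40.2 to 42.5%) with k+ in reach. The k+ list is the shorter one, with 9404 regions against 13856 in k-. With k- held to its 9404 widest regions and the classes drawn again, 47.4% of k+ only and 41.04% of k- only regions had the other list in reach. This cut was by width and left k+ whole. The 3766 k+ only regions then include some that overlap a dropped k- region, and k- only lost its narrow regions. The lists were thus equal in length but not in width.

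Those beside a k- region were the narrowest. Among the 523 k+ only regions within 1 kb of k-, 43.2% (38.9 to 47.6%) were 200 bp wide and 12.6% (9.90 to 15.8%) spanned 1000 bp or more. Beyond 1 kb these shares changed little with distance. Among the 335 regions more than 100 kb from k-, 24.5% (20.0 to 29.45%) were 200 bp wide and 20% (15.85 to 24.7%) spanned 1000 bp or more. The rule ties width to nearness here, because a wider k+ region beside a k- region overlaps it more readily and leaves the class. Its part in these shares was not tested. Of these 335 regions, 286 were also more than 100 kb from any GMP region.

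More k+ only than k- only regions had a gained region of both lists nearby. Such a region was in reach of 31.8% (30.2 to 33.5%) of k+ only and 28.1% (27.1 to 29.1%) of k- only regions, and here the list measured against was the same for both. Within 1 kb the shares were 8.80% (7.84 to 9.84%) of k+ only and 5.42% (4.92 to 5.95%) of k- only regions. When regions within 1 kb of the other leukemia list were left out of both classes, 26.0% of k+ only and 24.9% of k- only regions had a region in both lists in reach, a difference of 1.08 points. Regions in both lists hold bases of both k+ and k-, so this cut also removes regions beside them and lowers both shares by construction. It took out 16.4% of k+ only and 8.07% of k- only regions. With regions of 200 bp left out and the classes redrawn, the shares in reach were 26.4% of k+ only and 24.6% of k- only regions. The difference was then 1.81 points. In the remaining alternatives it lay between 3.09 and 4.39 points.

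Nearness to normal progenitor enhancers differed by few points between the classes. With gained, k+ and k- lists cut to at least 800 bp, the sign between k+ only and k- only flipped, at 19.4% and 19.6%. A GMP region was in reach of 20.9% (19.5 to 22.3%) of k+ only regions, 19.4% (18.5 to 20.3%) of k- only regions and 21.3% (20.04 to 22.5%) of regions in both lists. The median distances were 80800 bp for k+ only, 91400 bp for k- only and 69800 bp for regions in both. A total of 37 k+ only regions abutted a GMP region end to end. Nearness to GMP and to k- went together within the class. A GMP region was in reach of 31.55% (27.6 to 35.7%) of k+ only regions within 1 kb of k-. The share was 34.8% (31.3 to 38.3%) between 1 and 5 kb, and 5.97% (3.68 to 9.07%) beyond 100 kb. The lists tie these distances by construction. Of 3186 GMP regions, 1004 overlapped both leukemia lists and 568 overlapped k- only, and such a region cannot be near without k- being near too. How much this adds was not tested.

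**Figure D2:**
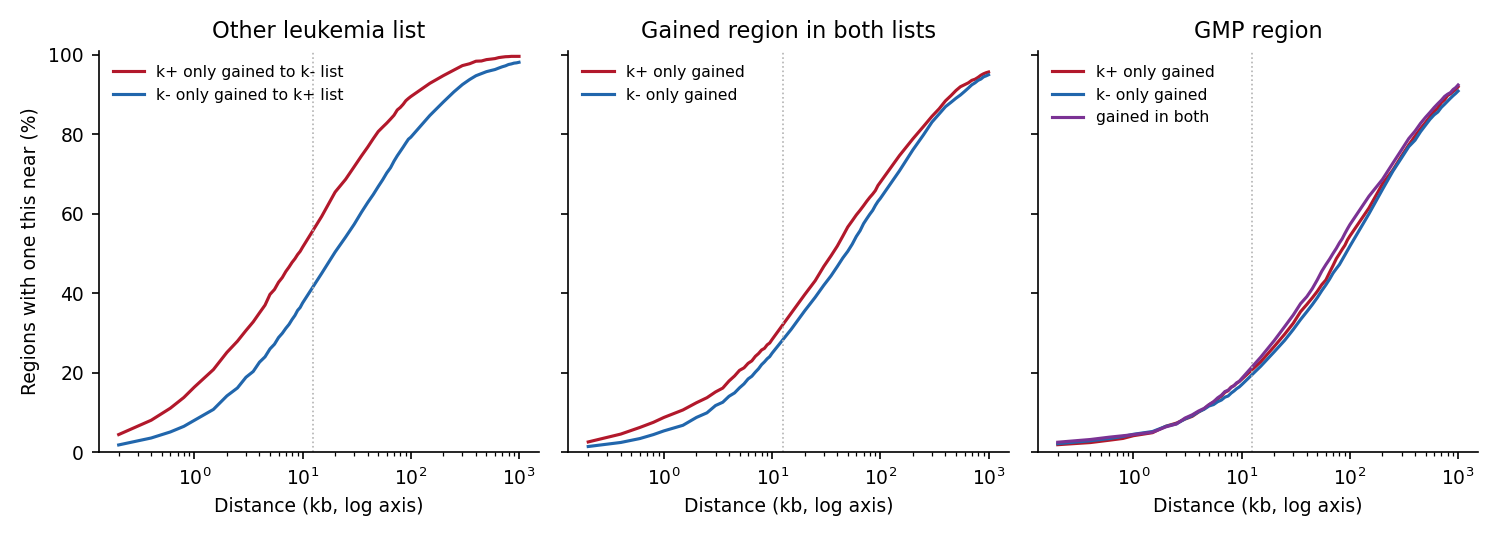
Cumulative percentage of gained regions with a neighbour at most the distance on the log axis (kb), for the nearest region of the other leukemia list (left), of the gained regions in both lists (middle) and of the GMP list (right); the dotted line marks the stitching distance. The curve of k+ only regions lies above that of k- only regions in the left panel, where 55.9% and 41.4% have a neighbour by the dotted line, and the curves nearly coincide in the right panel.

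GMP enhancers near k+ only regions were more often kept in k+ only, and less often in k- only, than those near k- only regions. Of the 664 k+ only regions with a GMP region in reach, the nearest one was kept in both leukemia lists for 239, or 36.0% (32.3 to 39.8%), lost from both for 256, or 38.55% (34.8 to 42.4%), kept in k- only for 90, or 13.55% (11.04 to 16.4%), and kept in k+ only for 79, or 11.9% (9.53 to 14.6%). For the 1458 k- only regions with such a neighbour, it was kept in k+ only for 6.65% (5.43 to 8.06%) and in k- only for 20.4% (18.3 to 22.5%). Over all 3186 GMP regions of these chromosomes, 7.72% (6.82 to 8.70%) were kept in k+ only and 17.8% (16.5 to 19.2%) in k- only. Several gained regions can share 1 GMP neighbour, so these counts are not independent. The same k+ and k- lists also set both the class of a gained region and the state of a GMP region. How much this adds to the differences was not tested.

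Next to a k+ only gained region, another of the class was found more often than the make-up of the gained list, although k- only regions were the most frequent neighbours. The nearest gained region of any class was k- only for 1206 of 3183, or 37.9% (36.2 to 39.6%), and itself k+ only for 1032, or 32.4% (30.8 to 34.1%), while these classes made up 50.4% and 21.3% of the gained regions. Among k- only regions the nearest one was k+ only in 15.8% (15.0 to 16.65%), and among regions in both lists in 22.1% (20.9 to 23.4%). The lean was strongest at short range. Of the 944 k+ only regions with a gained neighbour within 1 kb, that neighbour was k+ only for 460, or 48.7% (45.5 to 52.0%). Within the same distance it was k+ only for 13.0% (11.5 to 14.7%) of k- only regions and 30.35% (27.3 to 33.6%) of regions in both lists, the second of these also above the 21.3% of the make-up. The k- only regions did the same with their own kind: 65.7% (63.4 to 67.9%) of their neighbours within 1 kb were k- only. The rule shapes such close pairs by construction. A k+ and a k- region that overlap or touch become a single gained region in both lists, while entries of the same list stay apart. How much this adds to the short-range shares was not tested.

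Some neighbours were almost adjoining. A gap of only 200 bp parted 235 k+ only regions from another of the class, or 7.38%, against 6.32% of k- only regions and 0.754% of regions in both lists. Joining k+ only regions no more than 1 kb apart turned the 3183 regions into 2935 loci, of which 231 were made of several regions, and the median width of a locus was 600 bp. For k- only regions, 7533 became 6909 loci, with a median of 600 bp. The medians of joined loci were thus equal, but the widths are stepped at 200 bp and a median can hide a difference. Few loci were joined from several regions, 575 of 6909 for k- only. Other measures of locus width were not computed, so equal medians do not show that the loci were alike in width.

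**Figure D3:**
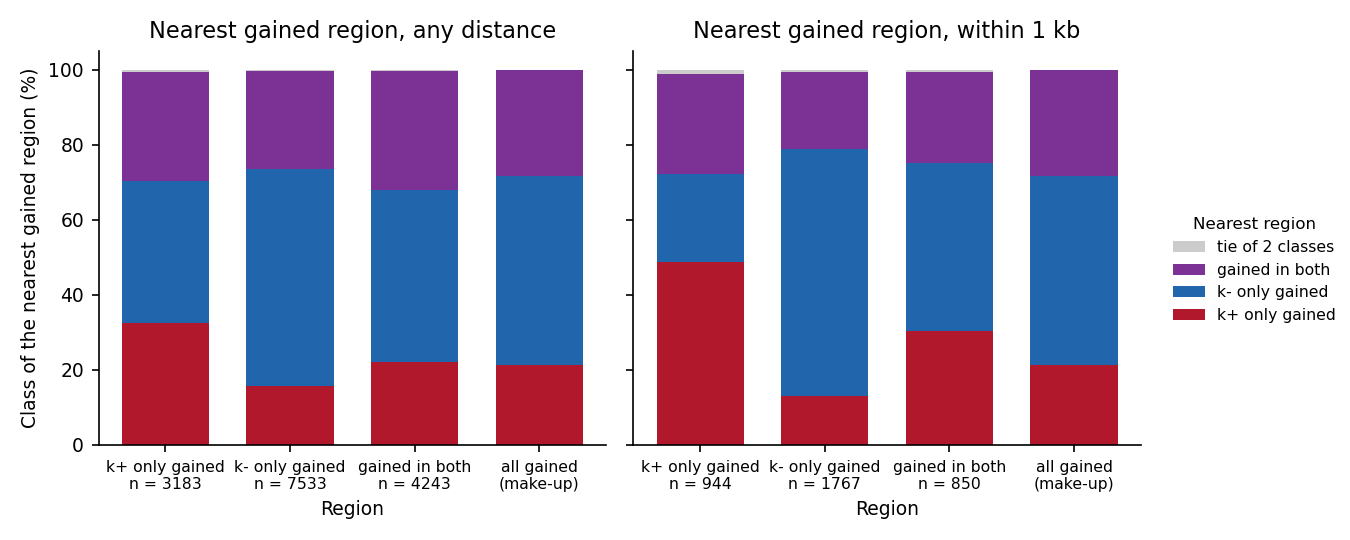
Stacked bars of the class of the nearest other gained region, in percent, for regions of each class and, in the last bar of each panel, the make-up of all gained regions; left at any distance, right for regions with a neighbour within 1 kb (n under each bar). The red part, k+ only neighbours, is 48.7% for k+ only regions within 1 kb against 21.3% of the make-up.

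Large domains of k+ only regions were few. Stitched into domains, 2118 of the 3183 regions, or 66.5% (64.9 to 68.2%), had no other of the class in reach, against 54.04% (52.9 to 55.2%) of k- only regions, a class more than double in number. A total of 317, or 9.96% (8.94 to 11.1%), lay in 96 clusters of 3 or more. Of these clusters, 74 held 3 regions, 17 held 4, and 5 held 5 or 6. The share in clusters was 5.35% once regions of 200 bp were left out of the gained, k+ and k- lists and the classes redrawn. That redrawn class can include regions that overlap a k- region of 200 bp. Most clusters were not free of k-: a k- region lay inside the span of 38 and in reach of another 36, which left 22, or 22.9% (14.95 to 32.6%), with none in reach. A GMP region lay inside the span of 13 clusters, and 20 had neither a k- nor a GMP region in reach.

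Seen from the k+ side, the regions were spread over single and grouped k+ entries. When the k+ list was stitched on its own, 1362 k+ only gained regions, or 42.8% of them, stood alone among k+ regions. The class made up 38.3% (36.7 to 39.9%) of the solitary k+ regions, 34.3% (32.4 to 36.3%) of those in pairs and 26.6% (24.1 to 29.3%) of those in domains of 5 to 9. In the 9 domains of 10 to 15 k+ regions the share was 34.0% (24.9 to 44.0%), on 103 regions. Among k+ regions of at most 400 bp, the share was 60.5% (57.7 to 63.3%) for solitary ones, 50.9% (47.5 to 54.3%) in pairs, 52.05% (48.5 to 55.6%) in domains of 3 or 4 and 47.4% (42.1 to 52.8%) in domains of 5 to 9. In domains of 10 to 15 it was 67.7% (48.6 to 83.3%), on 31 such regions, so the share did not fall throughout. Domains made of k+ only regions alone numbered 210 among the pairs and 39 among domains of 3 or 4, with 0 among the 186 domains of 5 to 9 and 0 among the 9 larger ones.

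The 5 clusters with the most k+ only regions lay on chromosomes 2, 9 and 4. On chromosome 2 in band qC1.1, 6 regions lay within 23.4 kb from 59872801 to 59896200, with widths of 200, 400, 200, 600, 1600 and 800 bp. They lay among k- regions: the span held 9 k+ and 5 k- regions and 2 gained regions in both lists, and none of the 6 was more than 4 kb from k-. The span held 0 GMP regions, and 4 lay within 50 kb of it. On chromosome 9 in band qB, 6 regions covering 5800 bp lay between 55082001 and 55098800, the widest of 2600 bp from 55085401 to 55088000. Here a single k- region lay in the span, and the nearest GMP region was 764 kb away.

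Chromosome 2 carried a longer stretch of such clusters in band qA1. Between 11305201 and 11646000, over 340.8 kb, lay 3 of the named clusters and 14 k+ only regions in all, beside 9 k- only regions and 5 in both lists. The class thus made up 14 of 28 gained regions there, or 50% (30.65 to 69.35%). The stretch was picked after its values were seen, so this share describes it and is no comparison. Its first cluster, of 5 regions from 11305201 to 11318200, was made of narrow pieces of 200 and 400 bp, 2 of them 400 bp from a k- region. The second, of 5 regions from 11476001 to 11495000, held 0 k- regions in its span, with the nearest 200 bp beyond its end. The third, of 3 regions from 11630001 to 11646000, included a region of 1800 bp, and the nearest k- region was 15.2 kb away. A single GMP region lay in the whole stretch.

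On chromosome 4 in band qA1, 5 regions covering 3800 bp lay between 8621601 and 8647400, 2 of them 1600 and 1400 bp wide. The span held 1 k- region, which belonged to a gained region in both lists, and 0 GMP regions. Within 50 kb of the span there were 8 k+ only regions, 2 in both lists and 0 k- only.

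Among clusters with no k- region in reach, 3 held 4 k+ only regions. On chromosome 2 in band qC2, from 68813401 to 68822400, the regions measured 200 to 400 bp, k- was 21.2 kb away and the nearest GMP region 66.6 kb. On chromosome 2 in band qH3, from 170198601 to 170213800, they measured 200 to 800 bp, with k- 26.4 kb away. The third, on chromosome 8 in band qA1.3 from 20008201 to 20012200, held 3 regions of 200 bp at 200 bp from each other and 1 of 400 bp, with a lost GMP region 2.4 kb off. The next by position, on chromosome 1 in band qE4 from 135119201 to 135125200, held 3 regions with no k- region within 93.8 kb and no GMP region within 572.8 kb. The third cluster of the chromosome 2 stretch described above completes these 5.

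**Figure D4:**
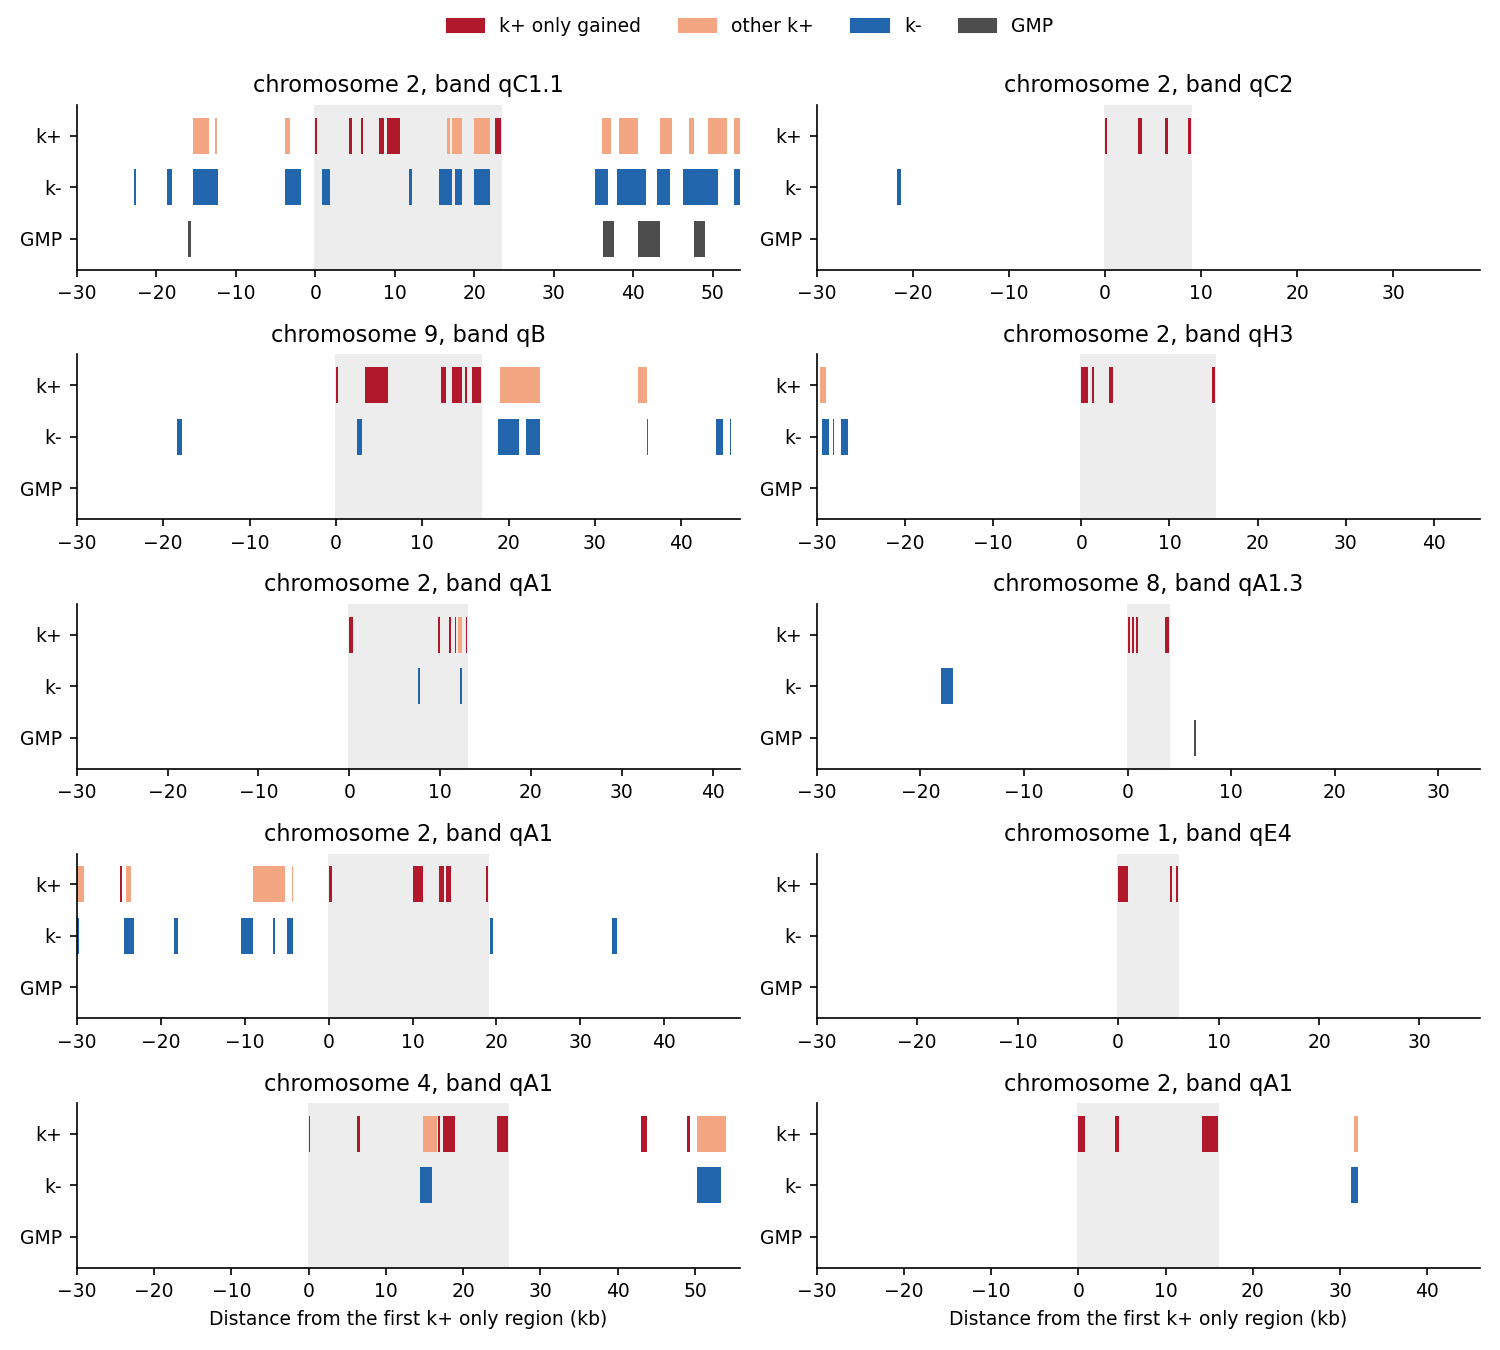
The named clusters, those with the most k+ only gained regions on the left and those with no k- region in reach on the right, drawn to scale in kb from the first k+ only region, with rows for the k+, k- and GMP lists and the span shaded. Dark red bars are k+ only gained regions and light bars other k+ regions. In the top left panel 5 k- regions lie between the k+ only regions, while no shaded span on the right holds any.

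The widest k+ only regions differed in their surroundings. The first, of 4400 bp on chromosome 2 in band qG1 from 143763001 to 143767400, lay 200 bp from a k- region and 2.4 kb from a GMP region. The next, of 4200 bp on chromosome 6 in band qF3 from 127472801 to 127477000, had its nearest k- region 47.4 kb away and no gained region in both lists within 1323 kb. A region of 4000 bp on chromosome 10 in band qB2, from 43310401 to 43314400, was the sole k+ region within 50 kb and had 0 k- regions within that distance, with k- at 72.4 kb and a lost GMP region at 13.2 kb. Of the 2 regions of 3800 bp, the one on chromosome 8 in band qB3.2 from 68915201 to 68919000 sat among 10 k+ and 8 k- regions within 50 kb. The other, on chromosome 13 in band qB1 from 56035401 to 56039200, had 6 k+ and 2 k- regions within the same distance.

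The k+ only regions farthest from any k- region stood alone. On chromosome 17 in band qE5, a region of 600 bp from 95230001 to 95230600 was 6278 kb from the nearest k- region and 42.05 kb from the end of the chromosome. Another, of 1800 bp from 91397801 to 91399600 in the same band, was 2445 kb from k-. On chromosome 15 in band qA2, a region of 600 bp from 19786601 to 19787200 was 5370 kb from k- but 200 bp from a lost GMP region. A region of 1800 bp on chromosome 3 in band qH4, from 157238601 to 157240400, was 2308 kb from k- and 6116 kb from GMP, and one of 400 bp on chromosome 2 in band qD, from 81841201 to 81841600, was 1687 kb from k-. In all 5 cases no other k+ region lay within 50 kb, and a lone entry of a list without replicates has no second measurement behind it.

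The k+ only regions followed the gained list across the chromosomes. Their density averaged 1.29 per Mb and ran from 1.003 per Mb on chromosome 18 to 1.92 per Mb on chromosome 19, with 1.81 per Mb on chromosome 11. Their share of the gained regions varied less, from 18.8% (16.5 to 21.3%) on chromosome 1 to 24.03% (20.95 to 27.3%) on chromosome 3. Chromosome 1 was the single one of 19 whose interval left out the share over all of them, by a small margin.

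Light and dark chromosome bands held similar shares of all 3 classes. Light bands (gneg), which tend to be gene-rich, hold 41.2% of the base pairs of these chromosomes and held 46.5% (44.7 to 48.2%) of k+ only, 47.3% (46.2 to 48.4%) of k- only and 47.5% (46.0 to 49.0%) of gained regions in both lists. The darkest bands (gpos100) hold 31.2% of base pairs and held 23.1% (21.6 to 24.6%) of k+ only, 22.4% (21.5 to 23.4%) of k- only and 22.0% (20.8 to 23.3%) of regions in both. Of 369 bands, 139 held 10 or more k+ only regions and 50 held none, and in 17 they outnumbered k- only regions.

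Of the 139 bands, the most k+ only regions per Mb were found in chromosome 13 band qA4, from 41409354 to 44367164, with 19 regions or 6.42 per Mb, beside 21 k- only, 20 in both lists and 8 GMP regions. Chromosome 7 band qE2, from 104694554 to 107351775, had 14, or 5.27 per Mb, and chromosome 9 band qA5.2, from 43982226 to 46297079, had 11, or 4.75 per Mb. In chromosome 16 band qA3, from 16386526 to 20600202, the 17 k+ only regions outnumbered the 15 k- only regions and the 12 in both lists, a share of 38.6% (24.4 to 54.5%). Chromosome 15 band qF1, from 95288325 to 100759424, held 21, or 3.84 per Mb. These bands were ranked by density, so their shares describe them and carry no test.

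**Figure D5:**
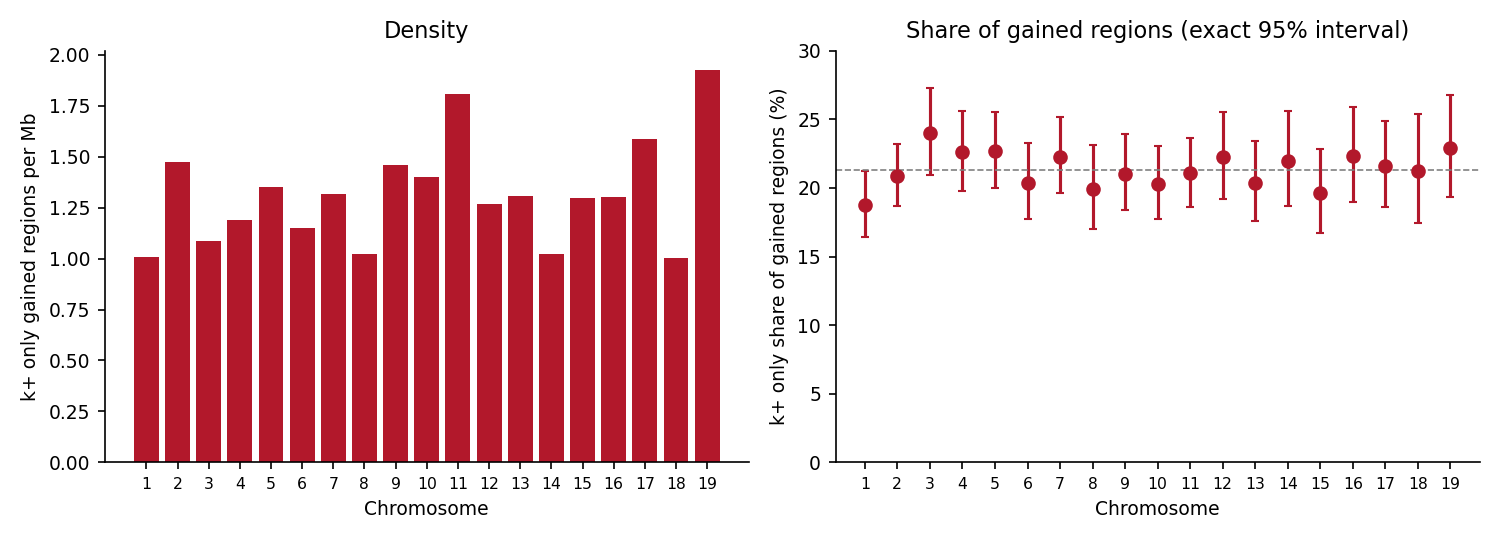
Left, k+ only gained regions per Mb of each of chromosomes 1 to 19. Right, their share of the gained regions of each chromosome in percent, with exact 95% intervals; the dashed line is the share over all 19, 21.3%, and the interval of chromosome 1 alone lies below it.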

How the data were processed

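The deposited lists give 3 columns without a header (chromosome, start and end) for each of 6 region lists of the whole series, with 0 columns of score, signal or read count. The authors' positions are multiples of 200 bp in every list. BWA, Picard, MACS2, HOMER, deepTools and the build mm9 are named per the submitters' processing notes. The sources used here do not state the rule and marks by which regions were chosen, or whether libraries were pooled. No position passed the end of its mm9 chromosome.

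Overlap of at least 1 bp was computed with SciPy 1.17.1, NumPy 2.4.6 and pandas 2.3.3 under Python 3.11.15, and the count of k+ only regions was the same with bedtools 2.31.1. Distances run between facing ends. The stitching distance was 12.5 kb, used for domains, clusters and every neighbour described as in reach. Bands came from circlize 0.4.16 in R 4.3.3. A region was placed by its midpoint for counts by band, and the band given for a named region or cluster is that of its start. Depth behind the regions is unknown. The code recovered every class, distance and cluster planted in simulated lists. Figures were drawn with matplotlib 3.10.9.

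Regions were named by rule: the 5 widest, the 5 clusters with the most k+ only regions, the 5 such clusters with no k- region within 12.5 kb, the 5 regions farthest from k-, and the 5 bands with the most per Mb among those with 10 or more. The members, comparisons and rules were chosen with earlier results of these data known. No test between lists was run, since regions are not replicates. Gene and sequence counts had been planned for an mm9 annotation and genome only; the tables at hand are for GRCm38, so these were not analysed here.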

Additional observations from a re-analysis of the deposited data

How the results depend on the processing

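No paired analysis was possible because the lists carry no replicate, and so none was left out. The setting without regions of 200 bp, and the differences between k+ only and k- only regions, were chosen after seeing the data. Other settings for nearby genes and base composition were listed at the start and were not run, for want of an mm9 genome here. Of 86 alternative values, 44 stayed within the interval of the value given in the report, or within 1.5 times for the number of regions, or, for differences, within 50% of it; 41 moved beyond that and 1 turned its sign. Adding X moved none.

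Asking that a list cover 50% of the gained region put 24.2% of gained regions in the k+ only class, with a median of 600 bp, 61.2% near k- (within the stitching distance), 12.2% in clusters of 3 or more and 22.7% near a region in both lists. That class takes in merged regions that k- overlaps over less than 50% of their length. Such an overlap counts as near k-, so the share near k- rises by construction. With no k- region within 1 kb, k+ only regions were 17.8% of gained regions, with 47.3% near k-, 18.8% near GMP, 7.82% in clusters and 26.0% near a region in both. Another setting cut the gained, k+ and k- lists to regions of at least 800 bp and redrew the classes. A k+ only region there can overlap a k- region under 800 bp, so it is not the wide part of the class. It gave 1338 k+ only regions, 16.9% of gained, with a median of 1000 bp. Of these, 41.9% were near k-, 19.4% near GMP, 1.94% in clusters and 22.05% near a region in both. With k- held to its widest regions, the values were 25.2%, 47.4% near k-, 11.5% in clusters and 28.4% near a region in both. With regions of 200 bp dropped from the gained, k+ and k- lists, and the classes redrawn, k+ only regions were 20.1% of gained. They had a median of 600 bp, with 50.1% near k-, 5.35% in clusters and 26.4% near a region in both. With a stitching distance of 5 kb, 39.7% were near k-, 12.0% near GMP, 20.6% near a region in both and 4.995% in clusters. With 25 kb the same shares were 68.7% near k-, 29.75% near GMP, 43.2% near a region in both and 15.65% in clusters; a longer reach raises each share by construction.

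The difference that turned was nearness to GMP: 1.51 points higher for k+ only than for k- only regions. It was -0.126 points with the gained, k+ and k- lists cut to regions of at least 800 bp. The excess near the other leukemia list kept its sign in every alternative, at 14.6 points in the report. The lowest, 6.36 points, came when k- was cut by width to the length of k+, which leaves the lists unlike in width. The difference in mean width, k+ only minus k- only, lay between -155 and -208.6 bp over the alternatives that redraw the classes, apart from the one with k- held to its widest regions. That one gave -519.8 bp, but it drops narrow k- regions by construction and so says nothing about the width difference. Without scores or read counts per region, the part of depth in these classes was not tested.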
